A study of Saccharomyces cerevisiae with 50 samples.

Results

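The 6 genes described here are GCN4 (YEL009C), which encodes the amino acid starvation regulator of budding yeast (Saccharomyces cerevisiae), and 5 genes known to control the breakdown or synthesis of Gcn4: PCL5 (YHR071W), PHO85 (YPL031C), SSN3 (YPL042C), CDC4 (YFL009W) and ASC1 (YMR116C). They were chosen by name and function, not by a measured value, but with earlier results of these data known. The deposited tables together list 5756 genes, and all 6 were present in every table and passed the low-count filter in every comparison.

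Gcn4 is a leucine zipper transcription factor that switches on genes of amino acid biosynthesis. Its mRNA is abundant in well-fed cells, but short reading frames in its leader hold back ribosomes before they reach the Gcn4 coding sequence. The protein is short-lived: the cyclin-dependent kinase Pho85, paired with its cyclin Pcl5, and the Mediator kinase Ssn3 (also called Srb10) phosphorylate it, and Cdc4, the F-box subunit of the SCF ubiquitin ligase, then recognises it for breakdown by the proteasome. Pcl5 is itself unstable, and its gene is transcribed under the control of Gcn4. Asc1 is a WD-repeat protein of the small ribosomal subunit, the yeast relative of RACK1, and its loss raises the activity of Gcn4 target genes.

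The series compared ribosomal protein gene deletion strains with wild type, in a study that asked which expression changes go with a longer or a shorter replicative lifespan. It holds 50 libraries in 17 groups. Transcripts (mRNA-seq) and ribosome-protected fragments (Ribo-seq) were sequenced for Δrpl7a and Δrpl9a, which the study describes as long-lived, for Δrpl6a, Δrpl15b and Δrps27b, which it describes as short-lived, and for wild type, with 3 libraries a group except 2 for the Δrpl6a footprints. A second set of mRNA-seq libraries, 3 a group, measured strains with altered GCN4. All strains are haploid MATa derivatives of BY4741 and carry his3Δ1, leu2Δ0 and ura3Δ0, the controls included. The deletion strains, their wild type and the plasmid strains are also labelled met15Δ0, and in each deletion strain a kanMX4 cassette replaces 1 ribosomal protein gene (rpl7a::kanMX4, rpl9a::kanMX4, rpl6a::kanMX4, rpl15b::kanMX4 or rps27b::kanMX4), while its paralogue remains. In PADH1-GCN4 the ADH1 promoter with a kanMX4 marker stands in place of the chromosomal promoter and leader of GCN4, the S242L strain is the same with a serine-to-leucine change in the coding sequence (S242L), and both were set against the MET15 control wt_met. PGAL-GST-GCN4 carries pEGH, a 2µ URA3 plasmid with GST-GCN4 under the GAL1-10 promoter, in addition to the chromosomal gene, and was set against wt_ura3, which carries the 2µ URA3 plasmid pRS426. Cultures were in mid-log growth, in YPD medium where nothing else was stated, and ribosomes were stopped with cycloheximide for the footprints. The study describes the replicates as biological.

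Counts assigned to genes totalled 5709195 to 12696200 per library in the mRNA-seq of the deletion strains, 8092039 to 15437373 in the Ribo-seq, 14061819 to 25642672 in PADH1-GCN4, S242L and wt_met, and 10722664 to 13693442 in the plasmid strains. Each deleted gene was at 0.433 to 4.28 CPM (counts-per-million units) of mRNA in its own strain. Marker genes stood apart from the labelled genotype in 2 strains. MET17, the gene disrupted in met15Δ0, was at 39.6 to 51.8 CPM of mRNA in Δrps27b and at 0 in wild type, and LEU2 was at 4097 to 5307 CPM in PGAL-GST-GCN4, against 1.81 to 3.37 CPM in wt_ura3. The labels do not list every marker of the pEGH plasmid, and LEU2 reads from a plasmid and from the chromosome cannot be told apart. GAL1 was at 3575 to 3813 CPM in PGAL-GST-GCN4 and 5316 to 8555 CPM in wt_ura3, so this gene, known for its induction by galactose, was on in both plasmid strains. The part of these marker differences in the results was not tested. The 5 deletion strains were each set against the same wild-type libraries, so their comparisons are not independent of each other.

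In the R64 assembly (sacCer3), GCN4 lies on the minus strand at chrV:138918-139763, with 846 coding bases for 281 codons. Its leader was searched for complete reading frames in the 600 bases before the start codon. The search found 4, shown here because GCN4 translation is known to be set by such frames. Each is given 5′ to 3′ on the minus strand, with its start and stop codons in capitals, the first at chrV:140113-140124, the second at chrV:140048-140056, the third at chrV:139928-139939 and the last at chrV:139903-139914.
uORF1: ATGgcttgcTAA
uORF2: ATGtgtTAA
uORF3: ATGtacccgTAG
uORF4: ATGtttccgTAA
These frames begin 361, 293, 176 and 151 bases before the GCN4 start codon and hold only 2 or 3 codons before their stop. Footprints were counted within coding sequences only, so ribosomes on these upstream frames do not enter the GCN4 counts. The PADH1-GCN4 and S242L alleles lack the native leader. The stretch around the S242L codon, at chrV:139026-139052 on the minus strand and in the part of the gene that encodes the DNA-binding basic region, is shown with that serine codon in capitals.
GCN4 at S242L: gccgccaggcgtTCTcgtgcgagaaag

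The other genes lie at chrVIII:237004-237693 on the plus strand (PCL5, 229 codons), chrXVI:492018-493037 on the minus strand in 2 coding parts (PHO85, 305 codons), chrXVI:473040-474707 on the minus strand (SSN3, 555 codons), chrVI:116145-118484 on the plus strand (CDC4, 779 codons) and chrXIII:499456-500688 on the minus strand in 2 coding parts (ASC1, 319 codons). The core letters of the Gcn4 recognition element, TGACTC, were searched on both strands in the 250 bases before each start codon, where 6.25% of 6001 genes hold them. None of the 6 genes had a match there, nor in the 500 bases before the start codon, where 12.7% of 6000 genes hold them. The search says only that these letters are not in these windows.

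The 6 genes spanned wide ranges of transcript and of footprint density, and GCN4 and PCL5 stood apart by the gap between them. Per kilobase of coding sequence, GCN4 in Δrpl7a had a mean mRNA level of 1643 CPM and a mean footprint level of 296 CPM, and ranked second of the 6 by both, after ASC1. PCL5 in Δrpl7a had 516 CPM of mRNA and 32.1 CPM of footprints on the same scale. In wild type the mean mRNA level per kilobase was 5234 CPM for ASC1, 1581 for GCN4, 189 for PCL5, 101 for PHO85, 37.4 for CDC4 and 18.4 for SSN3. The wild-type mean footprint level per kilobase was 4219 CPM for ASC1, 65.6 for PHO85, 41.5 for GCN4, 24.5 for CDC4, 14.9 for PCL5 and 7.37 for SSN3. GCN4 in wild type thus had the second highest mRNA level and a footprint level below that of PHO85, a gene with far less mRNA. PCL5 in wild type likewise had more mRNA than PHO85 and CDC4, and fewer footprints than either.

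GCN4 mRNA did not pass the test in any deletion strain, while GCN4 footprints were 7.14-fold higher in Δrpl7a and 2.67-fold higher in Δrpl9a than in wild type. Throughout, passing the test means that the p-value of the quasi-likelihood F-test (edgeR), adjusted by Benjamini-Hochberg over all genes, was below 0.01, and differences are log2 values with their standard error (SE). The mRNA level of GCN4 was 1167, 1391 and 1613 CPM in Δrpl7a, 1363, 1528 and 1978 CPM in Δrpl9a, and 1258, 1303 and 1595 CPM in Δrpl6a. It was 1162, 1200 and 1427 CPM in Δrpl15b, 1433, 1794 and 1904 CPM in Δrps27b, and 1197, 1350 and 1466 CPM in wild type. The ranges of all 5 strains overlapped that of wild type. The GCN4 mRNA differences against wild type were 0.06, 0.28, 0.05, -0.08 and 0.35 in Δrpl7a, Δrpl9a, Δrpl6a, Δrpl15b and Δrps27b, with an SE of 0.16 each and a lowest adjusted p of 0.128, in Δrps27b. The replicate numbers paired these mRNA libraries. With the replicate number as a block, the Δrps27b difference of 0.35 passed (adjusted p = 0.0047, edgeR). GCN4 mRNA also passed with the block in Δrpl7a against Δrps27b (-0.30, edgeR adjusted p = 0.0063) and in Δrpl9a against Δrpl15b (0.35, edgeR adjusted p = 0.0056). It passed as well in Δrpl15b against Δrps27b (-0.43, edgeR adjusted p = 9.7e-04).

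Footprints on GCN4 separated the strains. They were 244, 256 and 252 CPM in Δrpl7a, 92.6, 96.9 and 91.6 CPM in Δrpl9a, 56.7 and 52.7 CPM in Δrpl6a, 53.4, 34.1 and 23.9 CPM in Δrpl15b, 22.4, 24.6 and 27.1 CPM in Δrps27b, and 38.2, 37.1 and 30.1 CPM in wild type. Every Δrpl7a, Δrpl9a and Δrpl6a library lay above the highest wild-type library, every Δrps27b library lay below the lowest, and the Δrpl15b libraries fell on both sides. The GCN4 footprint difference was 2.84 (SE 0.18) in Δrpl7a, with an edgeR adjusted p of 1.6e-10, and 1.42 (SE 0.17) in Δrpl9a, with an edgeR adjusted p of 3.9e-06. These were the 21st and 45th highest of 5342 genes tested. The Δrpl6a difference of 0.64 (SE 0.19) missed the threshold (edgeR adjusted p = 0.025) and passed with DESeq2 (adjusted p = 0.0076). GCN4 did not pass in Δrpl15b, at 0.09 (SE 0.18), nor in Δrps27b, at -0.50 (SE 0.19, edgeR adjusted p = 0.032).

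**Figure D1:**
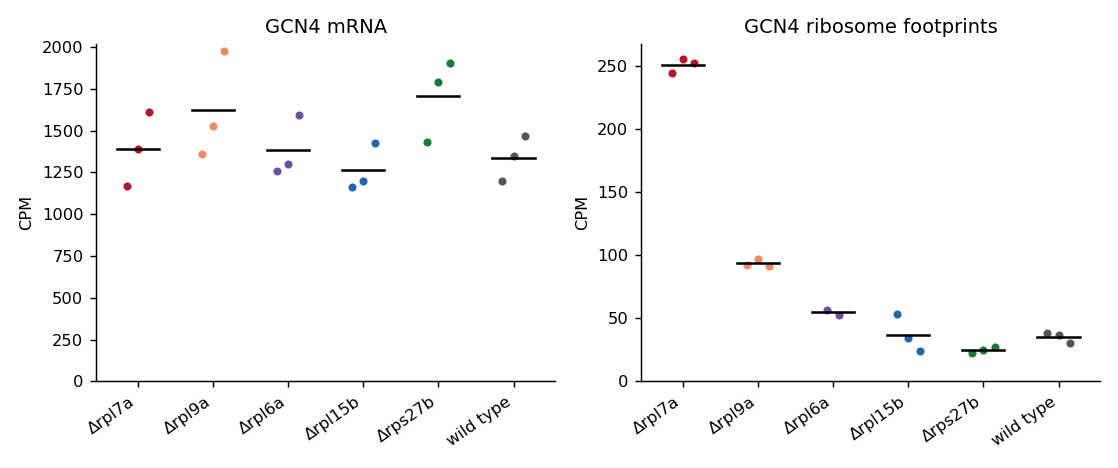
GCN4 mRNA and GCN4 footprints in CPM in the 5 deletion strains and wild type, with 1 point per library and a bar at the group mean. The mRNA range of each deletion strain overlaps that of wild type, though those of Δrpl15b and Δrps27b do not overlap each other. The footprint points of Δrpl7a sit between 244 and 256 CPM and those of Δrpl9a between 91.6 and 96.9 CPM, against 30.1 to 38.2 CPM in wild type.

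The difference in translation efficiency, the footprint difference minus the mRNA difference fitted in one model over both assays, was 2.78 (SE 0.26, edgeR adjusted p = 4.3e-09) for GCN4 in Δrpl7a and 1.13 (SE 0.26, edgeR adjusted p = 0.0015) in Δrpl9a. GCN4 was the 24th and the 114th highest of 5524 genes by this measure in Δrpl7a and Δrpl9a. In Δrpl6a it was 0.59 (SE 0.27) and in Δrpl15b 0.17 (SE 0.26), and neither passed. In Δrps27b it was -0.86 (SE 0.26), which missed the threshold (edgeR adjusted p = 0.018) and passed with the replicate block (-0.84, adjusted p = 0.0024) and in a fit of Δrps27b and wild type alone (-0.84, adjusted p = 0.0037).

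Ordered by mean GCN4 footprint level, the groups ran Δrpl7a, Δrpl9a, Δrpl6a, Δrpl15b, wild type and Δrps27b. Between the first and the second the log2 difference was 1.42 (SE 0.16, edgeR adjusted p = 2.0e-06). Δrpl9a exceeded Δrpl6a by 0.78 (SE 0.19, edgeR adjusted p = 0.0035), a difference that no longer passed without either Δrpl6a library (0.83, adjusted p = 0.025, and 0.73, adjusted p = 0.047). Δrpl6a against Δrpl15b gave 0.55 (SE 0.19), with a 95% interval of 0.15 to 0.96 and an edgeR adjusted p of 0.038. Without the highest Δrpl15b library (replicate 1) it was 0.92 (adjusted p = 5.5e-05). It was 0.33 (adjusted p = 0.118) without the lowest (replicate 3). Δrpl15b against Δrps27b gave 0.59 (SE 0.19, edgeR adjusted p = 0.012), with 0.22 (adjusted p = 0.197) without Δrpl15b replicate 1 and 0.83 (adjusted p = 5.6e-05) without its replicate 3. The place of Δrpl15b beside wild type rested on the same library, since their difference of 0.09 was -0.28 without Δrpl15b replicate 1, and neither value passed. GCN4 footprints in Δrpl6a exceeded those in Δrps27b by 1.14 (SE 0.20, edgeR adjusted p = 1.0e-04). Both long-lived strains passed the test against all 3 short-lived strains, with differences of 2.19 to 3.34 for Δrpl7a and 0.78 to 1.92 for Δrpl9a, in contrasts in which 24% to 43.2% of the genes tested passed for Δrpl7a and 15.9% to 26.4% for Δrpl9a.

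Among the genes whose footprint levels were most like those of GCN4 over the 17 Ribo-seq libraries, of 4090 genes compared, those named here encode enzymes of amino acid biosynthesis. They were TRP2 (tryptophan, Pearson r = 0.988), ARG4 (arginine, r = 0.985), ARG7 (arginine, r = 0.983) and ARG1 (arginine, r = 0.974). The points share libraries and library scaling, and the correlation is a description of these 17 libraries. PHO85 footprints had an r of 0.708 with those of GCN4, and PCL5 footprints an r of 0.695.

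PCL5 encodes the cyclin that directs Pho85 to Gcn4. Its mRNA was 315, 348 and 405 CPM in Δrpl7a, 206, 204 and 163 CPM in Δrpl9a, 201, 196 and 188 CPM in Δrpl6a, 125, 120 and 126 CPM in Δrpl15b, 153, 155 and 199 CPM in Δrps27b, and 132, 138 and 122 CPM in wild type. All libraries of Δrpl7a, Δrpl9a, Δrpl6a and Δrps27b lay above the highest wild-type library, and those of Δrpl15b within or just below the wild-type range. PCL5 mRNA rose in Δrpl7a by 1.45 (SE 0.13, edgeR adjusted p = 3.7e-07), in Δrpl9a by 0.55 (SE 0.13, adjusted p = 0.0038) and in Δrpl6a by 0.58 (SE 0.13, adjusted p = 0.0037). The differences of -0.08 in Δrpl15b and 0.37 in Δrps27b (edgeR adjusted p = 0.040) did not pass. The Δrpl9a call was lost without wild-type replicate 1 or 3 or Δrpl9a replicate 1 or 2 (adjusted p = 0.0169 to 0.0242), and the Δrpl6a call without wild-type replicate 1 or 3 or Δrpl6a replicate 1 or 2 (adjusted p = 0.0142 to 0.0218).

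Between strains, PCL5 mRNA in Δrpl7a exceeded that in each other deletion strain, by 0.90 over Δrpl9a, 0.87 over Δrpl6a, 1.53 over Δrpl15b and 1.07 over Δrps27b, in contrasts in which 8.63%, 39.4%, 35.9% and 42.5% of genes passed. Δrpl9a and Δrpl6a did not differ beyond their spread (-0.03, SE 0.13, 95% interval -0.29 to 0.24), and each exceeded Δrpl15b, by 0.63 and 0.65. The PCL5 call for Δrpl9a over Δrpl15b was lost without replicate 1 or 2 of either strain and in a fit of both strains alone (adjusted p = 0.0143 to 0.0200), and that for Δrpl7a over Δrpl9a in a fit of both strains alone (adjusted p = 0.060). Genes most like PCL5 in mRNA over the 18 libraries, of 4760 compared, included ARG7 (r = 0.948), RIB5 (riboflavin biosynthesis, r = 0.943), MET13 (methionine biosynthesis, r = 0.941) and LYS1 (lysine biosynthesis, r = 0.919).

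PCL5 footprints did not follow its mRNA in every strain. They were 20.4, 25.8 and 20.2 CPM in Δrpl7a, 8.65, 8.16 and 10.0 CPM in Δrpl9a, 14.8 and 12.0 CPM in Δrpl6a, 16.4, 14.7 and 11.7 CPM in Δrpl15b, 6.31, 5.82 and 7.79 CPM in Δrps27b, and 8.76, 11.3 and 10.8 CPM in wild type. The Δrpl7a libraries were the highest of the 17 and the Δrps27b libraries the lowest, each apart from wild type, while those of Δrpl9a overlapped wild type. Between 43 and 310 footprints per library were counted on PCL5, which limits the precision of these values. PCL5 footprints rose in Δrpl7a by 1.11 (SE 0.17, edgeR adjusted p = 3.1e-05). No other strain passed: Δrpl9a stood at -0.20, Δrpl6a at 0.39, Δrpl15b at 0.48 and Δrps27b at -0.62 (SE 0.19, edgeR adjusted p = 0.012). The PCL5 difference in Δrps27b passed without wild-type replicate 1 (-0.72, adjusted p = 0.0074) and without Δrps27b replicate 3 (-0.77, adjusted p = 0.0097).

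The translation efficiency of PCL5 was lower than in wild type by -0.75 (SE 0.20, edgeR adjusted p = 0.0065) in Δrpl9a and by -0.99 (SE 0.21, edgeR adjusted p = 0.0016) in Δrps27b, and was -0.33 in Δrpl7a, -0.19 in Δrpl6a and 0.56 in Δrpl15b, which did not pass. The Δrpl9a call was lost in 10 of 19 alternative settings, with adjusted p up to 0.0217, while the Δrps27b call held in 18 of 18. The genes with the most similar footprint pattern to PCL5, among 4091 genes, were MET22 (r = 0.928), ADH5 (r = 0.919), PSP2 (r = 0.884), MDM38 (r = 0.884) and GGC1 (r = 0.881), none of them among the 5 most like it in mRNA.

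**Figure D2:**
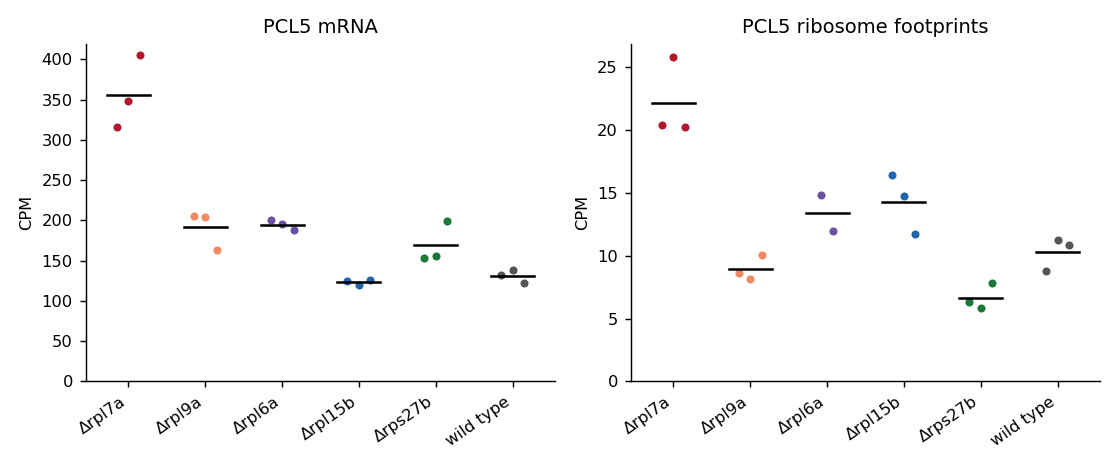
PCL5 mRNA and PCL5 footprints in CPM in the 5 deletion strains and wild type, with 1 point per library and a bar at the group mean. In Δrpl7a both measures stand above all other groups (315 to 405 CPM of mRNA and 20.2 to 25.8 CPM of footprints), while Δrpl9a has more PCL5 mRNA than wild type with footprints that overlap those of wild type (8.16 to 10.0 CPM, against 8.76 to 11.3 CPM).

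PHO85 encodes the kinase itself, which also serves other cyclins. Its mRNA was 127, 142 and 150 CPM in Δrpl7a, against 91.2, 95.7 and 92.0 CPM in wild type, and its footprints were 83.9, 75.8 and 89.3 CPM in Δrpl7a, against 63.7, 60.1 and 57.0 CPM in wild type. The groups did not overlap in either assay. PHO85 rose in Δrpl7a by 0.59 (SE 0.10, edgeR adjusted p = 1.6e-04) in mRNA and by 0.46 (SE 0.089, edgeR adjusted p = 3.1e-04) in footprints, and both calls held in 13 of 13 alternative settings. Its translation efficiency differed by -0.12 in Δrpl7a and did not pass. In the other strains PHO85 mRNA was between 82.4 and 125 CPM and its footprints between 45.5 and 61.0 CPM, and no difference against wild type passed. All PHO85 mRNA values of Δrpl9a (0.28, edgeR adjusted p = 0.048), Δrpl6a (0.16) and Δrpl15b (0.16) lay above the highest wild-type library, though by less than the test required. In footprints, Δrpl7a exceeded each of the other 4 deletion strains, by 0.54 to 0.83. The lowest PHO85 footprints were in Δrpl6a, at 45.5 and 47.9 CPM (-0.37, SE 0.10, edgeR adjusted p = 0.016). The Δrpl6a translation efficiency difference of -0.52 (SE 0.14, edgeR adjusted p = 0.015) passed with the replicate block (-0.50, adjusted p = 0.0065) and with DESeq2 (adjusted p = 0.0079).

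SSN3, the kinase of the Mediator kinase module, had the lowest wild-type level per kilobase of the 6 in both assays and did not pass the test in any deletion strain. Its mRNA was 25.1 to 43.5 CPM over the 15 deletion strain libraries, against 27.9, 32.5 and 31.5 CPM in wild type, and its footprints were 10.8 to 20.0 CPM, against 13.7, 11.7 and 11.4 CPM in wild type. SSN3 differences ranged from -0.22 to 0.25 in mRNA and from -0.13 to 0.37 in footprints. In Δrpl7a the mRNA value was held down by replicate 3, at 25.7 CPM, beside 43.5 and 40.5 CPM, and without that library the difference was 0.43 (edgeR adjusted p = 0.0042).

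CDC4, the F-box protein that recognises phosphorylated Gcn4, likewise passed in none of the deletion strains. Its mRNA was 76.2 to 112 CPM over the deletion strains, against 79.9, 79.8 and 103 CPM in wild type, and its footprints were 53.4 to 70.1 CPM, against 59.3, 55.3 and 57.2 CPM in wild type. CDC4 differences ranged from -0.05 to 0.22 in mRNA and from 0.04 to 0.26 in footprints, with a lowest edgeR adjusted p of 0.048. The CDC4 footprint libraries of Δrpl9a, at 65.3 to 70.1 CPM, and of Δrpl6a, at 59.7 and 64.9 CPM, lay above all 3 of wild type, and those of the other strains overlapped them.

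ASC1 mRNA was lower in Δrpl7a, at 2223, 2346 and 2785 CPM, against 4755, 4749 and 5571 CPM in wild type. It was 3805, 3721 and 5962 CPM in Δrpl9a, 5591, 4760 and 6182 CPM in Δrpl6a, 5204, 4457 and 4488 CPM in Δrpl15b, and 3436, 3994 and 3838 CPM in Δrps27b. The Δrpl7a and Δrps27b libraries lay below all wild-type libraries, and the other strains overlapped wild type. ASC1 mRNA fell by 1.04 in Δrpl7a (log2 difference -1.04, SE 0.17, edgeR adjusted p = 7.3e-05), a call that held in 13 of 13 alternative settings. The differences of -0.16, 0.13, -0.09 and -0.42 in Δrpl9a, Δrpl6a, Δrpl15b and Δrps27b did not pass.

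ASC1 footprints differed less. They were 3436, 3281 and 3187 CPM in Δrpl7a, against 3644, 4454 and 4051 CPM in wild type, a log2 difference of -0.29 (SE 0.073, edgeR adjusted p = 0.0028). Over the other 4 strains they were 3440 to 4599 CPM. The Δrpl7a footprint call was lost without wild-type replicate 2 (-0.22, adjusted p = 0.0192) or 3, without Δrpl7a replicate 2 or 3, in a fit of Δrpl7a and wild type alone (adjusted p = 0.0273) and without the Δrps27b libraries (adjusted p = 0.0102). ASC1 translation efficiency was higher in Δrpl7a by 0.75 (SE 0.19, edgeR adjusted p = 0.0021) and this call held in 19 of 19 alternative settings. The difference of -0.20 in Δrps27b footprints (edgeR adjusted p = 0.029) passed without wild-type replicate 1 (-0.27, adjusted p = 0.0042).

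Since Asc1 is a component of the small subunit, its values were set beside those of the RPS genes, which encode the other proteins of that subunit. In Δrpl7a mRNA, the median log2 difference of 56 RPS genes was -1.05 (range -1.56 to -0.35), 52 of the 56 passed as lower, and 29 lay below ASC1, so ASC1 sat in the middle of them. In Δrpl7a footprints their median was -0.13, with 10 lower and 3 higher past the test and 8 below ASC1. Their median translation efficiency difference in Δrpl7a was 0.92, with 43 higher past the test. In Δrpl9a mRNA the RPS median was -0.51, with 17 lower past the test, and 53 of 56 lay below ASC1 at -0.16. Over 13 alternative settings that ASC1 difference ranged from -0.42 to -0.04 and passed in none. Without Δrpl9a replicate 3, its highest ASC1 library, ASC1 in Δrpl9a against Δrpl6a moved from -0.29 to -0.55 (edgeR adjusted p = 0.0051). In Δrps27b the median of 55 RPS genes was 0.14 in mRNA and 0.50 in footprints, where 46 passed as higher, and ASC1 lay on the other side of zero in both, at -0.42 and -0.20, neither of which passed.

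**Figure D3:**
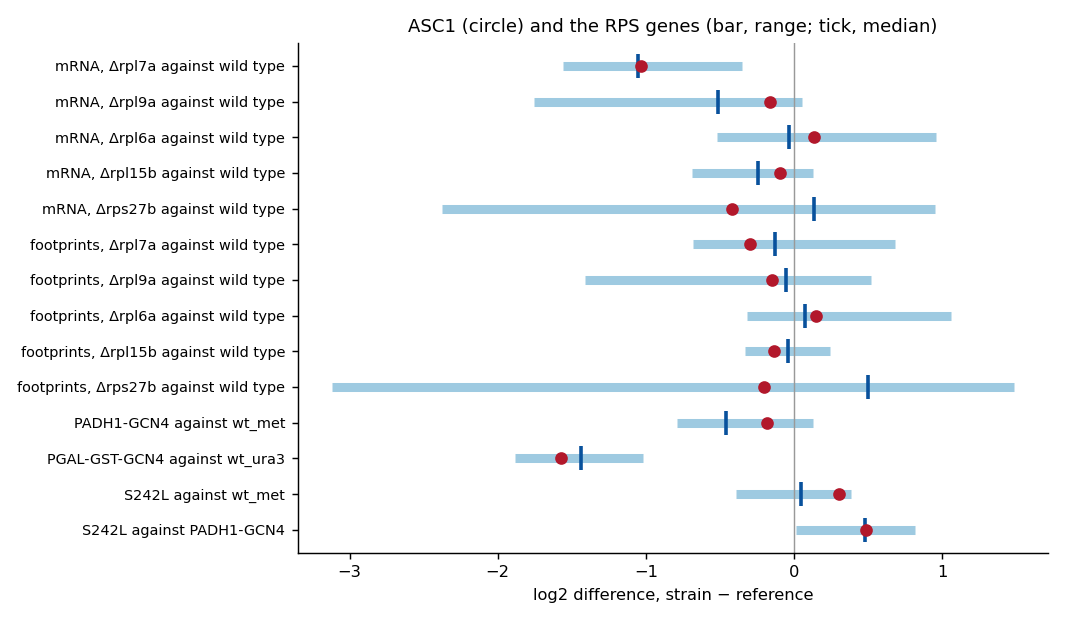
Log2 difference of ASC1 (circle) beside the RPS genes (bar from lowest to highest, tick at the median) in mRNA and footprints of the 5 deletion strains against wild type. The lower rows show mRNA of PADH1-GCN4 against wt_met, PGAL-GST-GCN4 against wt_ura3, and S242L against wt_met and against PADH1-GCN4. In Δrpl7a mRNA ASC1 at -1.04 lies next to the RPS median of -1.05.

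Counted over the 6 genes, the Δrpl7a strain held most of the differences. In mRNA, 3 of the 6 passed in Δrpl7a (PCL5 and PHO85 higher, ASC1 lower), where 44.8% of 5490 genes passed, so the count itself is near the background. The median mRNA difference of the 6 in Δrpl7a was 0.15, beside 0.03 over all genes tested. PCL5 alone passed in Δrpl9a, where 18.1% of genes passed, and in Δrpl6a, where 11.6% passed. None of the 6 passed in Δrpl15b, where 0.656% of genes passed and where edgeR gave 0 at an unadjusted p below 0.05 and DESeq2 also gave 0. None passed in Δrps27b, where 13.8% of genes passed, with 3 at an unadjusted p below 0.05 in edgeR and 0 by DESeq2.

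In footprints, 4 of 6 passed in Δrpl7a (GCN4, PCL5 and PHO85 higher, ASC1 lower), where 30% of 5342 genes passed, and only GCN4 passed in Δrpl9a, where 20.8% passed. The median footprint difference of the 6 in Δrpl7a was 0.25, beside -0.02 over all genes tested. In Δrpl6a, where 10.2% of genes passed, edgeR gave 0 of 6, 2 at an unadjusted p below 0.05, and DESeq2 gave 1. In Δrpl15b, where 3.13% passed, edgeR gave 0 of 6, 1 at an unadjusted p below 0.05, and DESeq2 gave 0. In Δrps27b, where 37.5% passed, edgeR again gave 0 of 6, 3 at an unadjusted p below 0.05, and DESeq2 gave 0. The Δrps27b footprints thus had the largest share of changed genes and none of these 6 among them by either tool. In edgeR, PCL5 (adjusted p = 0.012), ASC1 (adjusted p = 0.029) and GCN4 (adjusted p = 0.032) came close to the threshold, and each passed under some alternative setting.

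For translation efficiency, 2 of 6 passed in Δrpl7a (GCN4 and ASC1 higher), where 29.1% of 5524 genes passed, and 2 in Δrpl9a (GCN4 higher, PCL5 lower), where 15.7% passed. In Δrps27b PCL5 alone passed, where 11.1% of genes passed. In Δrpl6a, where 3.67% passed, edgeR gave 0 of 6, 2 at an unadjusted p below 0.05, and DESeq2 gave 1, and in Δrpl15b, where 0.217% passed, edgeR gave 0 of 6, 1 at an unadjusted p below 0.05, and DESeq2 gave 0. Between the deletion strains themselves, 35 of 120 tests of the 6 genes passed in mRNA and footprints together, beside 24.6% of all such tests over all genes.

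**Figure D4:**
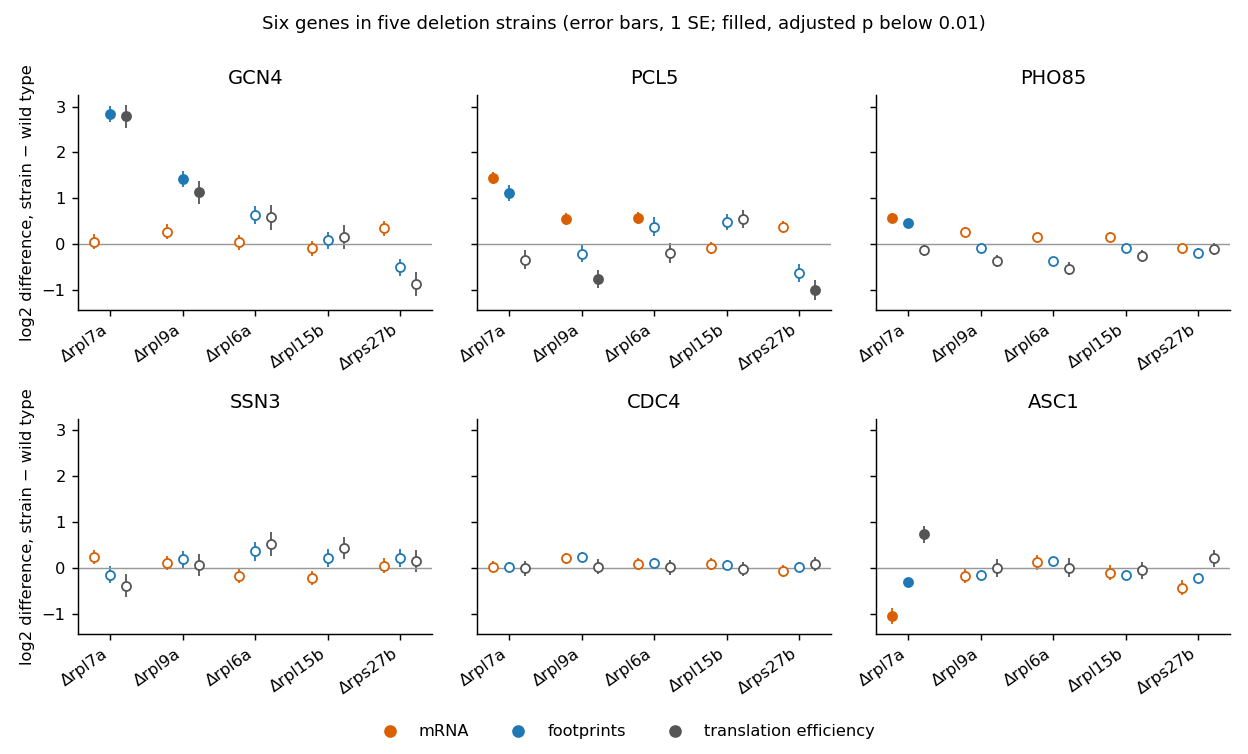
Log2 difference from wild type of the 6 genes in mRNA, footprints and translation efficiency of each deletion strain, with error bars of 1 SE and filled points where the edgeR adjusted p was below 0.01. GCN4 reaches 2.84 in Δrpl7a footprints with an mRNA difference of 0.06.

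In the strains built to make more Gcn4, GCN4 mRNA was higher in each, by different amounts. It was 3697, 3558 and 4009 CPM in PADH1-GCN4, 5354, 5608 and 5655 CPM in S242L, and 1024, 929 and 1142 CPM in wt_met, on a scaling common to these 9 libraries. It was 32003, 41901 and 38099 CPM in PGAL-GST-GCN4, against 938, 999 and 868 CPM in wt_ura3. No group overlapped another within its set. The log2 difference was 1.86 (SE 0.11, 3.62-fold, edgeR adjusted p = 9.4e-08) for PADH1-GCN4 and 2.42 (SE 0.10, 5.37-fold, edgeR adjusted p = 1.8e-09) for S242L against wt_met, and 5.32 (SE 0.36, 39.9-fold, edgeR adjusted p = 6.6e-06) for PGAL-GST-GCN4 against wt_ura3. S242L exceeded PADH1-GCN4 by 0.56 (SE 0.095, 1.48-fold, edgeR adjusted p = 8.4e-04). The S242L and PADH1-GCN4 libraries came in separate tables, and the sample titles name no sequencing run. If the runs or preparations differed, that difference and the mutation cannot be told apart. These counts are of transcripts that lack the native leader or, in PGAL-GST-GCN4, of the plasmid and the chromosomal gene together, and no Ribo-seq was analysed here for these strains.

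PCL5 mRNA was 2753, 3327 and 3018 CPM in PADH1-GCN4, 2251, 1605 and 2590 CPM in S242L, and 1274, 2130 and 2006 CPM in wt_met. Every PADH1-GCN4 library lay above every wt_met and S242L library, and S242L overlapped wt_met. PCL5 rose in PADH1-GCN4 by 0.74 (SE 0.17, edgeR adjusted p = 0.0040), a call lost without PADH1-GCN4 replicate 2 (adjusted p = 0.0214) or 3 (adjusted p = 0.0157). S242L against wt_met gave 0.25, which did not pass, and S242L against PADH1-GCN4 gave -0.50 (95% interval -0.92 to -0.07, edgeR adjusted p = 0.064). With the plasmid, PCL5 was 5641, 7236 and 7987 CPM in PGAL-GST-GCN4, against 2777, 2233 and 4883 CPM in wt_ura3, and the groups did not overlap. The difference of 1.08 (SE 0.34, edgeR adjusted p = 0.026) passed with DESeq2 (adjusted p = 0.0012) and without wt_ura3 replicate 3, the highest of its group (1.48, adjusted p = 0.0041).

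**Figure D5:**
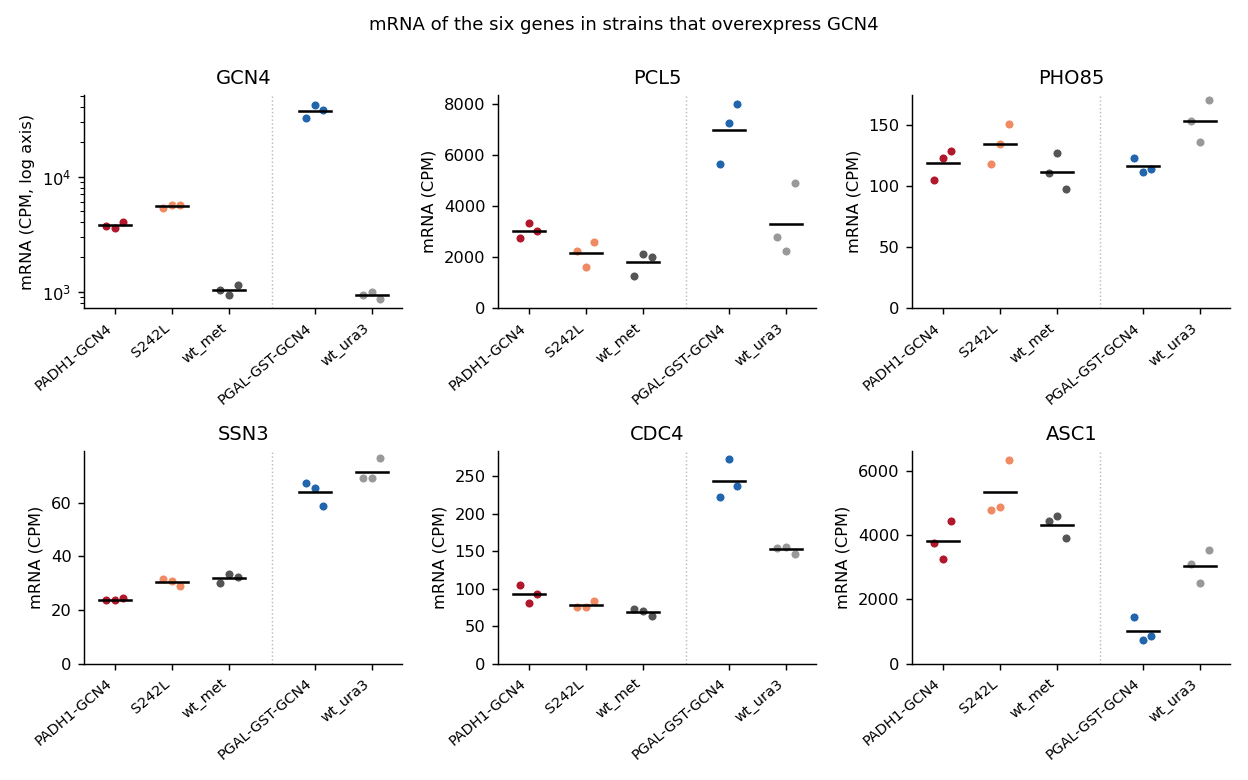
mRNA of the 6 genes in CPM in PADH1-GCN4, S242L and wt_met and in PGAL-GST-GCN4 and wt_ura3, with 1 point per library, a bar at the group mean and a log axis for GCN4. GCN4 reaches 32003 to 41901 CPM with the GAL1-10 plasmid, against 868 to 999 CPM in wt_ura3, and PCL5 lies between 2753 and 3327 CPM in PADH1-GCN4, against 1274 to 2130 CPM in wt_met.

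ASC1 and CDC4 moved in opposite directions in PGAL-GST-GCN4. ASC1 was 1465, 725 and 866 CPM in PGAL-GST-GCN4, against 3086, 2500 and 3525 CPM in wt_ura3, and fell by 1.58 (log2 difference -1.58, SE 0.31, edgeR adjusted p = 0.0025), a call lost without PGAL-GST-GCN4 replicate 2 (adjusted p = 0.0114) or 3 (adjusted p = 0.0177). The median log2 difference of the 56 RPS genes was -1.44 in that comparison, with 55 lower past the test. CDC4 was 222, 273 and 237 CPM in PGAL-GST-GCN4, against 155, 156 and 147 CPM in wt_ura3, and rose by 0.68 (SE 0.15, edgeR adjusted p = 0.0042), a call lost without wt_ura3 replicate 1 (adjusted p = 0.0176) or PGAL-GST-GCN4 replicate 2 (adjusted p = 0.0245) or 3 (adjusted p = 0.0181). PHO85 at -0.40 (edgeR adjusted p = 0.040) and SSN3 at -0.16 did not pass.

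In PADH1-GCN4, CDC4 was 105, 81.1 and 92.8 CPM, against 73.0, 70.8 and 64.3 CPM in wt_met, a difference of 0.42 (SE 0.11, edgeR adjusted p = 0.0098) that was lost on leaving out any wt_met library or PADH1-GCN4 replicate 1 or 3 (adjusted p = 0.0132 to 0.0377). SSN3 was 23.7, 23.7 and 24.5 CPM in PADH1-GCN4, 31.4, 30.8 and 28.9 CPM in S242L, and 30.1, 33.3 and 32.4 CPM in wt_met. SSN3 fell by 0.42 in PADH1-GCN4 against wt_met (log2 difference -0.42, SE 0.091, edgeR adjusted p = 0.0028), a call lost without wt_met replicate 2 (adjusted p = 0.0114) or PADH1-GCN4 replicate 3 (adjusted p = 0.0111). In S242L against PADH1-GCN4 SSN3 was higher by 0.34 (SE 0.083, edgeR adjusted p = 0.0071), a call that held in 5 of 12 alternative settings and was lost among others under the replicate block (adjusted p = 0.0149) and in a fit of these strains alone (adjusted p = 0.0169). ASC1 in S242L exceeded PADH1-GCN4 by 0.48 (edgeR adjusted p = 0.016), which passed with DESeq2 (adjusted p = 0.0033), and the RPS median was 0.48 in the same comparison. Against wt_met, ASC1 was at -0.18 in PADH1-GCN4 and at 0.31 in S242L, and neither passed. The RPS medians there were -0.46, with 36 lower past the test, and 0.05. In each of these 2 comparisons 54 of the 56 RPS genes lay below ASC1. PHO85 passed in none of these comparisons (0.08 in PADH1-GCN4 and 0.27 in S242L, each against wt_met).

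By count, 4 of the 6 passed in PADH1-GCN4 (GCN4, PCL5 and CDC4 higher, SSN3 lower), where 33.9% of 5547 genes passed, and 3 in PGAL-GST-GCN4 (GCN4 and CDC4 higher, ASC1 lower), where 33.6% of 5574 passed. In S242L only GCN4 passed against wt_met, where 13.2% of 5545 genes passed, and GCN4 and SSN3 passed against PADH1-GCN4, where 22.8% passed. These strains were built to overexpress GCN4, so its pass against each control was set by the construction. Apart from GCN4, the genes past the test were PCL5, CDC4 and SSN3 in PADH1-GCN4 and CDC4 and ASC1 in PGAL-GST-GCN4. No other gene of the set passed in S242L against wt_met.

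The partners of these proteins were read from 4 short lists with 20 genes in all: 5 of the SCF core and its E2 and modifier (SKP1, CDC53, HRT1, CDC34, RUB1), 10 made up of other Pho85 cyclins and the inhibitor PHO81, 3 other subunits of the Mediator kinase module (SSN8, SRB8, SSN2) and 2 of SUMO conjugation (SMT3, UBC9). In mRNA, 6 of the 20 passed as higher and 3 as lower in Δrpl7a, and 2 and 2 in Δrpl9a, 1 and 3 in Δrpl6a, 0 and 1 in Δrpl15b, and 0 and 2 in Δrps27b. In footprints the counts were 3 higher and 4 lower in Δrpl7a, 2 and 1 in Δrpl9a, 1 and 0 in Δrpl6a, 2 and 0 in Δrpl15b, and 2 and 3 in Δrps27b. Over all genes, the mRNA shares passing as higher and lower were 24.3% and 20.5% in Δrpl7a, 11.8% and 6.32% in Δrpl9a, 8.03% and 3.61% in Δrpl6a, 0.364% and 0.291% in Δrpl15b, and 8.29% and 5.52% in Δrps27b. The footprint shares over all genes were 15.1% and 14.9% in Δrpl7a, 10.8% and 9.94% in Δrpl9a, 6.8% and 3.41% in Δrpl6a, 1.97% and 1.16% in Δrpl15b, and 19.2% and 18.3% in Δrps27b. In Δrpl7a mRNA the median log2 difference was 0.28 for the SCF list and 0.02 for the Pho85 cyclins and PHO81, beside 0.03 over all genes, and in Δrpl7a footprints the medians were 0.23 and -0.12, beside -0.02.

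In the deletion strains, the partners that passed and changed over 2-fold were other Pho85 cyclins or PHO81, the list with 10 of the 20 genes. Over all genes, 18.7%, 7.96%, 5.05%, 0.492% and 5.54% passed over 2-fold in mRNA of Δrpl7a, Δrpl9a, Δrpl6a, Δrpl15b and Δrps27b. The footprint shares were 5.84%, 3.44%, 2.92%, 1.39% and 8.99% in the same order. PCL1, a cyclin of the G1 phase, had lower mRNA in all 5 strains, with log2 differences of -2.60, -2.23, -1.48, -1.38 and -2.06 for Δrpl7a, Δrpl9a, Δrpl6a, Δrpl15b and Δrps27b, all past the test against the same 3 wild-type libraries. In these bulk cultures, fewer cells in G1 and less PCL1 mRNA per cell cannot be told apart. PCL1 footprints differed by 0.00, 0.01, -0.45, -0.11 and -0.37 in the same order and did not pass. PCL8, a cyclin of the glycogen pathway, had higher mRNA in Δrpl7a (1.53) and Δrpl9a (1.04) with footprint differences of 0.22 and 0.12 that did not pass, and PCL2 mRNA was lower in Δrpl7a (-1.09). CLG1, a cyclin-like protein, had 27.1, 27.2 and 29.1 CPM of footprints in Δrpl7a, against 88.3, 61.4 and 82.7 CPM in wild type (-1.48). PHO81, the inhibitor of Pho85 with Pho80, had 97.9, 79.8 and 89.9 CPM of footprints in Δrps27b, against 34.9, 26.9 and 29.7 CPM in wild type (1.54), and was also higher in Δrpl15b (1.19), with mRNA differences of 0.03 and 0.16 that did not pass. PCL10 footprints were lower in Δrps27b (-1.13).

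In the strains with altered GCN4, partners passing as higher and lower numbered 4 and 6 in PADH1-GCN4, 2 and 5 in PGAL-GST-GCN4, and 0 and 3 in S242L against wt_met. Over all genes, 18.1% passed as higher and 15.8% as lower in PADH1-GCN4, 18.9% and 14.7% in PGAL-GST-GCN4, and 8.3% and 4.89% in S242L. PHO81 mRNA was lower in PADH1-GCN4 (-1.10) and in S242L (-1.24), which share the wt_met libraries, and was 0.09 in PGAL-GST-GCN4, which did not pass. In PGAL-GST-GCN4 the largest of the differences over 2-fold were PCL1 (-3.06), PCL2 (-2.59), PCL9 (-1.68) and CLG1 (1.56), and SMT3 (-1.40), which encodes SUMO, and PCL8 (1.20), both named after their values were seen, also passed over 2-fold. No gene of the SCF list passed and changed over 2-fold in any of these comparisons, in which 0.199% to 23.4% of all genes did. With 5 genes in the list, this is not read as a trait of them. The SCF genes that passed, of which some are named here after their values were seen, included the E2 enzyme CDC34 (0.84) and the RING subunit HRT1 (0.62) in Δrpl7a mRNA. In Δrpl7a footprints 2 of the list passed as higher and 1 as lower, CDC53, the cullin (-0.27). In footprints 1 passed as higher in each of Δrpl9a, Δrpl6a and Δrps27b. A further 1 passed as higher in Δrpl9a translation efficiency, where 5.7% of all genes did, and 1 as lower in PADH1-GCN4.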

How the data were processed

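Messenger RNA was sequenced from all strains with a directional kit and ribosome-protected fragments from the deletion strains and their wild type. Per the study's methods and the submitters' processing notes, the authors trimmed reads with the FASTX toolkit, aligned them with segemehl, kept unique alignments to the sacCer3 transcriptome and deposited whole-number counts per gene, not normalized; footprints were counted within coding sequences at read lengths that showed 3-nucleotide periodicity. Unique alignment leaves out reads that paralogues share, and an mRNA count grows with transcript length. The deposited tables of the authors' own comparisons (DESeq2 fold changes and p-values) were not used. All per-sample columns were matched to samples by name.

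Counts were fitted with edgeR 4.0.16 in R 4.3.3 (limma 3.58.1): filterByExpr, TMM scaling, quasi-likelihood fit and two-sided F-test, with Benjamini-Hochberg adjustment over all genes of a fit. The mRNA fit held 18 libraries, the footprint fit 17, the translation efficiency fit all 35 with an interaction of strain and assay and scaling within each assay, the PADH1-GCN4 and PGAL-GST-GCN4 fits 6 each and the S242L fits 9. A gene passed at an adjusted p below 0.01 and changed over 2-fold at an absolute log2 difference above 1. CPM were computed with TMM library sizes. Intervals are 95%. The script was tested on simulated data with known fold changes before use.

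Deposited counts of replicates differed by more than sampling noise in every pair (lowest chi-square per gene 3.135). Replicate numbers, which the labels give, paired the mRNA libraries (correlation of deviations from group means 0.159 to 0.680 over 45 same-numbered pairs) and the plasmid strains (0.370 to 0.444 over 3 pairs), but not the footprints (lowest -0.221) or the PADH1-GCN4, S242L and wt_met set (lowest -0.540). Alternatives were DESeq2 1.42.0, median-of-ratios scaling, no fold minimum, no low-count filter, an adjusted p threshold of 0.05, the replicate block, only the groups compared, leaving out each library and, chosen after seeing the data, leaving out the Δrps27b libraries and a longer motif window.

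The 6 genes and the partner lists were chosen with earlier results of these data known. Of the partners, those that passed and changed over 2-fold were named, at most 4 a comparison by size. The genes most like GCN4 or PCL5 were the 5 of highest Pearson r of log2 CPM (prior count 2) of the genes that averaged 4 or more on that scale, of which some are not reported here. Gene positions and sequences are from the RefSeq R64 reference, in which 5741 of 5743 mRNA and 5664 of 5666 footprint identifiers were found.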

Additional observations from a re-analysis of the deposited data

Results flagged for a closer look

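A difference in translation efficiency means that a strain differed from wild type by another amount in footprints than in mRNA, tested as an interaction of strain and assay in edgeR. It passed for 5 combinations of gene and strain. GCN4 differed by 2.78 (log2) in Δrpl7a, with footprints 7.14-fold higher and mRNA 1.04-fold higher than in wild type, and by 1.13 in Δrpl9a. PCL5 differed by -0.749 in Δrpl9a, where its mRNA rose and its footprints overlapped those of wild type, and by -0.99 in Δrps27b. ASC1 differed by 0.745 in Δrpl7a, where its mRNA fell by 1.04 and its footprints by 0.29. No group held enough libraries for a test of single outlying libraries.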

How the results depend on the processing

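Counts of the 6 genes past the test moved by over 1.5 times under few settings. At an adjusted p below 0.05 the counts over the deletion strains were 11 in footprints, against 5 as reported, and 8 in translation efficiency, against 5, and the count in PGAL-GST-GCN4 was 5, against 3. Without the Δrps27b libraries, a choice made after seeing the data that also removes their comparisons, 3 passed in translation efficiency, against 5, and 22 tests between deletion strains, against 35. For S242L against PADH1-GCN4, 1 passed in a fit of these groups alone, against 2. Leaving out single libraries gave 3 to 6 in mRNA (5 as reported, 3 without wild-type replicate 1 or 3), 4 to 7 in footprints, 4 to 5 in translation efficiency, 1 to 3 in PADH1-GCN4 (4 as reported, 2 without wt_met replicate 2 and 1 without PADH1-GCN4 replicate 3), 1 to 4 in PGAL-GST-GCN4 (3 as reported, 1 without its replicate 2 or 3), 1 to 1 in S242L against wt_met, 1 to 2 in S242L against PADH1-GCN4, where 5 of the single libraries decide the SSN3 call, and 31 to 36 between deletion strains. With the replicate number as a block, 6 passed in mRNA, 5 in footprints, 7 in translation efficiency, 4 in PADH1-GCN4, 3 in PGAL-GST-GCN4, 1 in S242L against wt_met, 1 in S242L against PADH1-GCN4 and 39 between deletion strains. Of 60 single differences past the test, recomputed in 772 settings, 676 values passed in the same direction, 96 kept the direction and did not pass, and 0 turned. The cause was not tested. Low counts limit the precision of PCL5 footprints, and the spread between replicates that of GCN4 footprints in Δrpl15b (37.1 ± 15.0 CPM, SD, n = 3).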

Other observations

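PCL5 mRNA was at very different levels in the control strains of the separate tables, which were normalized separately and compared by no test. Its mean was 1803 CPM in wt_met and 3297 CPM in wt_ura3, against 131 CPM in the met15Δ0 wild type, or 13.8-fold and 25.2-fold as much. By this ratio PCL5 ranked second of 5464 genes in wt_met and 19th in wt_ura3 (log2 of CPM plus 1). Its chromosomal neighbours did not share this pattern: in wt_met, wt_ura3 and the wild type, in that order, TRM5 averaged 88.1, 66.7 and 101 CPM and ERG7 106, 131 and 128 CPM. GCN4 mRNA was 0.77-fold and 0.70-fold that of the wild type in wt_met and wt_ura3, and PHO85 1.20-fold and 1.65-fold. The controls differ from the wild type in marker genes and plasmid, and GAL1 mRNA marks another growth condition in wt_ura3. The sample titles name no sequencing run, so strain, medium and any difference in run cannot be told apart.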
